A study of Mus musculus with 12 samples.

Results

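The transcripts of 10 genes whose proteins build or steer the Polycomb repressive complexes PRC1 and PRC2 were followed in mouse embryonic stem (ES) cells in which Xist RNA was switched on from its own locus. The genes were Ezh2, Eed, Suz12 and Jarid2 of PRC2, Ring1, Rnf2, Pcgf3, Pcgf5 and Cbx7 of PRC1, and Hnrnpk, which encodes an RNA-binding protein that connects Xist RNA to PRC1. They were taken by name, as the entries with these symbols in the count tables. All 10 were found in each of the 12 libraries, among 24627 genes listed, and all 10 were among the 13191 genes that passed the filter on low counts (at least 1 CPM, the count scaled to a common library size, in 6 or more of the 12 libraries).

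The cells were Xist-TetOP lines derived from J1, a male (XY) ES cell line, in which a TetO promoter at the endogenous locus drives Xist when doxycycline (DOX) is added. The Xist FL line makes the full-length RNA, the Xist ΔA line lacks the A repeat, and the Xist ΔB+C line lacks the B and C repeats. RNA was sequenced at day 2 of differentiation in medium without LIF, without DOX (noDOX) or with DOX at 1.5 μg/ml, in 2 replicates for each of the 6 groups. The study calls the replicates biological duplicates, and no label says what the replicate number stands for. P-values rest on the spread between these duplicates. In a second fit, which takes out the difference shared by libraries of the same replicate number, they rest on the spread that remains. Each line is a clone of its own, so the effect of a deletion on a level without DOX and the history of a clone cannot be told apart. The study made the ΔB+C line by genome editing of the FL line, while the FL and ΔA lines had been published before. Not every cell switches on Xist with DOX, and in such bulk RNA a change in fewer cells and a smaller change in all cells cannot be told apart either.

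PRC2 methylates histone H3, which leaves the mark H3K27me3, through its catalytic subunit EZH2 or the paralog EZH1, which is active with EED and SUZ12, while accessory subunits such as JARID2 steer it to its targets. PRC1 ubiquitinates histone H2A, which leaves the mark H2AK119ub, through RING1B, encoded by Rnf2, or RING1A, encoded by Ring1. Its PCGF subunit sets the variant of the complex. Complexes with CBX7 read H3K27me3, and those with PCGF3 or PCGF5 do not need this mark to reach the inactivating X chromosome. The protein hnRNPK binds the B repeat of Xist RNA, a stretch rich in cytosine, and connects it to PCGF3/5-PRC1. The Xist RNA therefore acts on where these complexes sit, and the question addressed here was whether the transcripts of the complexes themselves differed with Xist induction, with the deletions, or between the lines.

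A part of Xist RNA that hnRNPK is known to bind, in the B repeat, is shown because the ΔB+C line lacks it. That line also lacks the C repeat, not shown here, which the study describes as bound by hnRNPK too. A search of the GENCODE vM21 Xist transcript of 17946 bases for the motif GCCCCA found 17 matches, 15 of them in a window of 189 bases (transcript positions 2860 to 3048, in exon 1). The window lies at chrX:103480207-103480395 on the minus strand of mm10. The sequence reads 5′ to 3′, with the matches in capitals:
Xist, B-repeat window: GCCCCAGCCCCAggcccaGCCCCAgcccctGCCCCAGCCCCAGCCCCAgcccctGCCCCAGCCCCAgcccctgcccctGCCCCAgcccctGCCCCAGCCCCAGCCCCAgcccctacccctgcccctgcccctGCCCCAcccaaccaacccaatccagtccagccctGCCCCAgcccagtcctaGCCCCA
On the opposite strand the motif had 4 matches in the transcript and 0 in this window. Of 32851 RefSeq promoter sequences cut to the same length, 15.6% held the motif on either strand, with at most 6 matches in a promoter. A match marks these letters and is not itself a binding site.

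Library depth lay between 31337490 and 41240470 counts, and TMM scaling factors, which correct totals for differences in RNA composition, between 0.978 and 1.02. Xist itself was at 2.48 to 8.27 CPM in the noDOX libraries and at 570.1 to 1791 CPM in the DOX libraries. The libraries thus matched their labels of DOX or noDOX, including the 3 noDOX replicate 1 libraries whose deposited names carry the word DOX. Counts per gene do not show the deleted repeats, so the labels of the lines were not checked here. The ES cell marker Pou5f1 lay between 1149 and 1811 CPM in the 12 libraries. The summed level of 6 fibroblast markers was between 10.1 and 53.1 CPM and that of 7 primitive endoderm markers between 23.1 and 56.9 CPM, against 1905 to 3032 CPM for 8 markers of pluripotent cells. No marker gene was at 0 counts in all libraries. The ΔB+C DOX replicate 2 library was a low-input preparation from 100 ng of RNA, against 1000 ng for the others, and calls in ΔB+C with DOX are given without it as well.

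The 10 transcripts differed widely in abundance. Per kilobase of the longest coding transcript in GENCODE vM21, Hnrnpk had the highest mean level, 382.2 CPM per kb over the 12 libraries (range 328.4 to 433.7). Of the 3 core subunits of PRC2, Eed had a mean of 70.2 CPM per kb (65.9 to 76.0), Suz12 of 49.1 (36.5 to 59.3) and Ezh2 of 41.0 (35.7 to 44.6). Jarid2 had a mean of 67.1 CPM per kb, with a range of 43.1 to 94.2 that contained that of Eed. Among the PRC1 genes, Cbx7 had a mean of 52.4 CPM per kb (46.9 to 59.5) and Rnf2 of 31.8 (27.6 to 36.1). Ring1, the paralog of Rnf2, followed at 10.1 (8.62 to 12.3), and its range did not meet that of Rnf2. Pcgf3 was lower, at 6.21 CPM per kb (4.83 to 8.09), and Pcgf5 lowest, at 1.46 (0.953 to 1.94). Counted over the exons of transcripts linked to RefSeq, Pcgf5 was at 6.22 CPM per kb, so its place below Pcgf3 depended on the transcript taken as its length. The ranges of some neighbours in this order overlapped. Within a library, Eed was above Jarid2 in 8 of 12, Jarid2 above Cbx7 in 10, Cbx7 above Suz12 in 7 and Suz12 above Ezh2 in 8, so these orders changed between libraries. Ezh2 was above Rnf2 in 12 of 12 libraries, although their ranges touched.

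Paralogs of these subunits differed as widely. Ezh1 was at 6.28 CPM per kb against 41.0 for Ezh2. Of the genes for other PCGF subunits, Pcgf2 (43.1 CPM per kb) and Pcgf6 (36.2) were above Pcgf3 and Pcgf5 in all libraries, Pcgf1 was at 11.8, and Bmi1, the PCGF4 gene, at 2.43. Of the other CBX genes named here, Cbx2 (15.7 CPM per kb), Cbx6 (15.2) and Cbx8 (0.696) were below Cbx7.

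**Figure D1:**
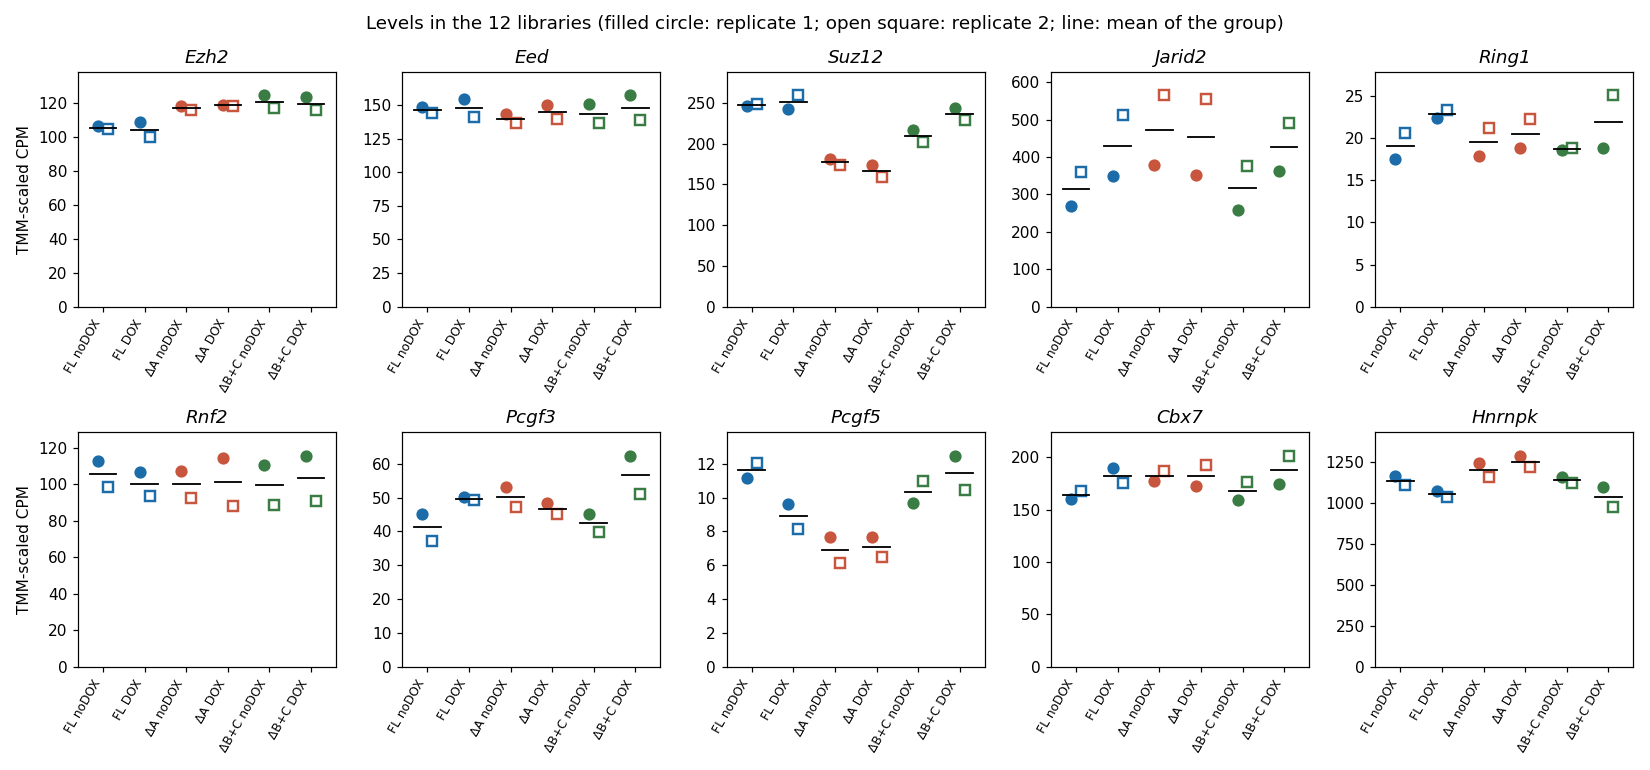
TMM-scaled CPM of each of the 10 genes (vertical axes from 0) in the 6 groups, with replicate 1 as a filled circle, replicate 2 as an open square and the group mean as a line. Suz12 and Pcgf5 were lowest in the 4 ΔA libraries, and Jarid2 was higher in replicate 2 than in replicate 1 of every group.

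Ezh2 and Eed of the PRC2 core and Rnf2, the main catalytic subunit of PRC1, differed little between libraries with and without DOX. Ezh2 was at 106 and 104.6 CPM in replicates 1 and 2 of FL noDOX and at 108.7 and 99.54 CPM in FL DOX. In ΔA its values were 118.1 and 115.9 CPM without DOX and 118.6 and 118.3 CPM with DOX, and in ΔB+C 124.3 and 116.8 CPM without and 123.1 and 115.7 CPM with DOX. The DOX and noDOX libraries of each line overlapped or differed by less than the replicates did. The log2 fold changes of Ezh2 with DOX were -0.02 ± 0.08 in FL, 0.02 ± 0.08 in ΔA and -0.01 ± 0.08 in ΔB+C (± SE, edgeR's quasi-likelihood test). For Eed, which binds H3K27me3 and stimulates EZH2, they were 0.01, 0.05 and 0.04, each ± 0.10, with levels between 136.2 and 157.1 CPM in all 12 libraries. For Rnf2 they were -0.08, 0.02 and 0.05, each ± 0.18. The 95% intervals of these 9 changes all lay between -0.47 and 0.45.

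No member passed the threshold of an adjusted p of 0.05 in any line with DOX. The count was 0 of 10 in FL, where 1.24% of all tested genes passed, 0 of 10 in ΔA, where 0.00758% passed, and 0 of 10 in ΔB+C, where 2.94% passed. All 10 members are autosomal, and of the autosomal genes 0.283%, 0% and 1.79% passed in the same order. At an unadjusted p under 0.05 the counts were 0, 0 and 1, the latter being Pcgf3 in ΔB+C (edgeR, adjusted p = 0.138). Among all 13191 tested genes, 1780, 149 and 2480 had such a p in the same order. DESeq2 and limma-voom also called 0 members in each line. The median log2 fold change of the 10 members was 0.0164 in FL, 0.0172 in ΔA and 0.157 in ΔB+C, beside -0.00724, 0.000144 and -0.003 over all tested genes.

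Jarid2 and Pcgf3 passed the threshold in FL and in ΔB+C once the replicate number entered the fit as a block, which was done because libraries of the same number deviated together. Jarid2, which encodes an accessory subunit that binds PRC2 and nucleosomes carrying H2AK119ub, was at 269.3 and 358.8 CPM in FL noDOX (314.0 ± 63.3, mean ± SD, n = 2) and at 348.0 and 513.2 CPM in FL DOX (430.6 ± 116.8). In ΔB+C it was at 258.5 and 375.6 CPM without DOX and at 363.4 and 492.3 CPM with DOX. In ΔA it was at 377.8 and 564.9 CPM without and at 351.1 and 554.5 CPM with DOX. The groups overlapped in all 3 lines, but within each replicate number Jarid2 was higher with DOX in both pairs of FL and of ΔB+C, and lower in both pairs of ΔA. Its log2 fold change in the fit of 6 group means was 0.46 ± 0.32 in FL (adjusted p = 0.588), -0.06 ± 0.32 in ΔA (adjusted p = 1) and 0.43 ± 0.32 in ΔB+C (adjusted p = 0.514). With the block it rose by 0.44 ± 0.07 in FL (adjusted p = 0.00253) and by 0.44 ± 0.07 in ΔB+C (adjusted p = 0.00188), and was -0.06 ± 0.07 in ΔA (adjusted p = 0.959).

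Pcgf3, which encodes a subunit of the PRC1 variant that Xist recruits through hnRNPK, was at 45.2 and 37.3 CPM in FL noDOX and at 50.0 and 49.4 CPM in FL DOX. In ΔB+C it was at 45.25 and 39.9 CPM without DOX and at 62.4 and 51.0 CPM with DOX. In ΔA it was at 53.05 and 47.3 CPM without and 48.3 and 45.0 CPM with DOX. Both DOX libraries were above both noDOX libraries in FL and in ΔB+C, and the groups overlapped in ΔA. With the block, Pcgf3 rose by 0.28 ± 0.08 on the log2 scale in FL (adjusted p = 0.0437) and by 0.41 ± 0.08 in ΔB+C (adjusted p = 0.00526), and was -0.10 ± 0.08 in ΔA (adjusted p = 0.945). The count with the block was thus 2 of 10 in FL and 2 of 10 in ΔB+C, against 13.9% and 21.9% of all tested genes, and 0 of 10 in ΔA, against 0.0227% (of autosomal genes 11.4%, 19.9% and 0%). Without the low-input library, the blocked values in ΔB+C were 0.50 for Jarid2 (adjusted p = 0.00741) and 0.48 for Pcgf3 (adjusted p = 0.0129).

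The remaining members gave smaller or unsteady differences with DOX, none past the threshold in either fit. Pcgf5, the paralog of Pcgf3, was at 11.1 and 12.1 CPM in FL noDOX and at 9.64 and 8.15 CPM in FL DOX, a log2 fold change of -0.38 ± 0.18 (adjusted p = 0.386), with no overlap between the groups. In ΔB+C it was at 9.69 and 10.96 CPM without DOX and at 12.5 and 10.4 CPM with DOX, a change of 0.15 ± 0.18, with overlap. Suz12 had a change of 0.17 ± 0.08 in ΔB+C (adjusted p = 0.31), where the DOX libraries were at 243.7 and 228.9 CPM and the noDOX libraries at 217.3 and 202.2 CPM. The median change of the 1113 tested genes on its chromosome, 11, was 0.115 in this comparison, and Suz12 minus that median was 0.06. Ring1 was at 17.5 to 25.1 CPM in all libraries, with changes of 0.26 ± 0.17 in FL and 0.23 ± 0.17 in ΔB+C. Cbx7 had changes of 0.16 ± 0.10 in each of these lines. The DOX libraries of Hnrnpk lay below the noDOX libraries in both FL and ΔB+C. In FL they were at 1071 and 1036 CPM, against 1162 and 1108 CPM without DOX. In ΔB+C they were at 1094 and 975.2 CPM, against 1155 and 1118 CPM. The changes of Hnrnpk, -0.11 ± 0.08 and -0.14 ± 0.08, did not pass the threshold (edgeR, adjusted p = 0.631 and 0.42). In FL the groups of Ring1 and Cbx7 did not overlap either, both being higher with DOX. How many of all tested genes had groups without overlap was not counted for any comparison. Such separations, that of Pcgf3 above included, therefore describe the libraries and test nothing.

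**Figure D2:**
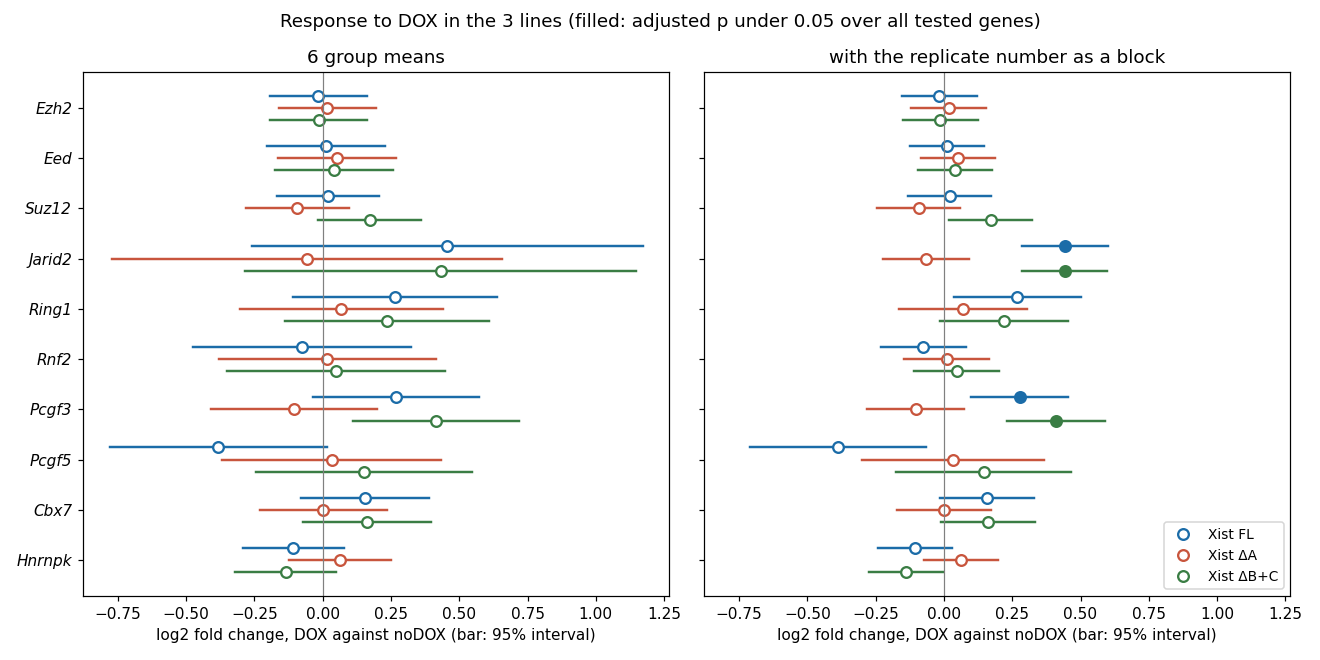
Log2 fold change with DOX (horizontal axis) and its 95% interval for each gene in the 3 lines, from the fit of 6 group means on the left and with the replicate block on the right; filled points passed the threshold. Jarid2 and Pcgf3 in FL and ΔB+C are the only filled points, on the right, and Ezh2, Eed and Rnf2 sit near 0.

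The sequences around the start sites of Jarid2 and Pcgf3 are shown because these were the members that passed with DOX in the blocked fit, and because CG dinucleotides, which mark CpG islands, are what the PRC1 factor KDM2B binds. Both are RefSeq windows of 300 bases on the plus strand of mm10 (GRCm38.p6), around the start site, at chr13:44730524-44730823 for Jarid2 and chr5:108461009-108461308 for Pcgf3. They read 5′ to 3′, with each CG in capitals:
Jarid2: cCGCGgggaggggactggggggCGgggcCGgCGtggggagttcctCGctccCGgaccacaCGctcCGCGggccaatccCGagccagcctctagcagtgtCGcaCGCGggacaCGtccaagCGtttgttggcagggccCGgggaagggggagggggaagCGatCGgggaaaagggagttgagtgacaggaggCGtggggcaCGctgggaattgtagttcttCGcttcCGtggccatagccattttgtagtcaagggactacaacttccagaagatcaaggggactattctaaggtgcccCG
Pcgf3: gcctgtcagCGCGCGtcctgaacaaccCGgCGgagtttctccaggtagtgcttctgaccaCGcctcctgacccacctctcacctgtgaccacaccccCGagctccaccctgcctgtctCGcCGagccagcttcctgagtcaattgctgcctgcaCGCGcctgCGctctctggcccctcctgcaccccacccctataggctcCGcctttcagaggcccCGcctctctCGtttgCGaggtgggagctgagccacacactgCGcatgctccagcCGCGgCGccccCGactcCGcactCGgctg
The Jarid2 window holds 24 CG dinucleotides and the Pcgf3 window 23, against a median of 7 in 32851 promoter windows, of which 94.6% hold at least 1. Of all windows, 80.0% hold fewer than Jarid2 and 78.5% fewer than Pcgf3. CG reads the same on both strands and does not occur in the motif GCCCCA. Over the 13 start sites that RefSeq lists for the 10 members, the counts ran from 5 for another Pcgf5 start to 41 for Suz12, and those of Jarid2 and Pcgf3 lay inside this range.

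The study asks whether the deletions change the effect of Xist, and for the members this was tested as the difference between the responses of 2 lines. No member passed the threshold in any of the 3 differences (6 group means; 0, 0 and 0.205% of all tested genes passed for ΔB+C minus FL, ΔA minus FL and ΔB+C minus ΔA). At an unadjusted p under 0.05 the counts were 0, 0 and 1 of 10, beside 106, 981 and 1596 of 13191 tested genes. DESeq2 and limma-voom without the block called 0 members in each difference. For ΔB+C minus FL, the comparison that bears on the loss of the B and C repeats, the 95% interval of the difference was -0.25 to 0.25 for Ezh2, -0.28 to 0.34 for Eed, -0.11 to 0.42 for Suz12, and -0.29 to 0.23 for Hnrnpk. For Jarid2 it was -1.03 to 0.99, and -0.22 to 0.22 with the block. The largest value was that of Pcgf5, at 0.53 ± 0.25 (95% interval -0.03 to 1.10, adjusted p = 1). No gene at all was called for this difference by edgeR in either fit, by DESeq2 or by limma-voom, while 106 of 13191 had an unadjusted p under 0.05.

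With the block, the response of Jarid2 was lower in ΔA than in FL (-0.51 ± 0.10 on the log2 scale, adjusted p = 0.0229; 3.31% of all tested genes passed) and 0.51 ± 0.10 higher in ΔB+C than in ΔA (adjusted p = 0.0131; 9.32%; 0.56 and adjusted p = 0.021 without the low-input library). That of Pcgf3 was 0.51 ± 0.12 higher in ΔB+C than in ΔA (adjusted p = 0.0198; 0.58 and adjusted p = 0.0279 without that library), and -0.38 ± 0.12 in ΔA against FL (adjusted p = 0.0984). These differences share the 4 ΔA libraries, so they are not independent of each other. In the ΔA line Jarid2 and Pcgf3 started from the higher noDOX levels given above.

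Before Xist was switched on, the ΔA line had less Suz12 and Pcgf5 transcript than the FL line. Suz12, which encodes the subunit that holds PRC2 together, was at 181.8 and 174.3 CPM in ΔA noDOX (178.1 ± 5.31, SD, n = 2) and at 246.4 and 248.4 CPM in FL noDOX (247.4 ± 1.38). Its log2 difference was -0.47 ± 0.08 (adjusted p = 0.0107). The DOX libraries of ΔA, at 174.4 and 159.7 CPM, were also below the FL libraries. Pcgf5 was at 7.68 and 6.14 CPM in ΔA noDOX and at 11.1 and 12.1 CPM in FL noDOX, a log2 difference of -0.74 ± 0.18 (adjusted p = 0.0322). The groups did not overlap for either gene. These were 2 of 10 members, where 9.84% of all tested genes passed. Leaving out 1 library at a time, the difference of Suz12 stayed between -0.50 and -0.44 and that of Pcgf5 between -0.92 and -0.59. The adjusted p rose above the threshold for both without any of the 4 libraries compared (0.0523 to 0.0972 for Suz12 and 0.066 to 0.212 for Pcgf5), and for Pcgf5 also without ΔB+C noDOX replicate 2 (0.0501).

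Other genes on the chromosomes of Suz12 and Pcgf5 were also lower in ΔA. Suz12 lies on chromosome 11 (chr11:79993106-80034123, mm10), where the median difference of 1113 tested genes between ΔA and FL without DOX was -0.35 and 86.2% of the genes were below 0. Suz12 minus that median was -0.13. Pcgf5 lies on chromosome 19 (chr19:36348309-36460970), where the median of 451 genes was -0.21, and Pcgf5 minus that median was -0.54. On the other members' chromosomes the medians lay between -0.03 and 0.11. Whether these 2 levels belong to the chromosomes as a whole was not tested, and deletion and clone cannot be told apart. Of the 8 pluripotency markers 1 passed in this comparison (6 group means), Dppa3, which was lower at 1.87 and 2.87 CPM in ΔA noDOX against 11.7 and 13.1 CPM in FL noDOX (adjusted p = 0.000603). The values of 6 of the 8 were above 0, with a median of 0.398, so the list did not move one way. None of the 4 markers of the exit from pluripotency, of the 7 of primitive endoderm or of the 3 fibroblast markers tested passed (0 in each list). With the block 4, 2, 2 and 1 of these lists passed. The part of these markers in the result was not tested.

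Without DOX the ΔB+C line did not differ from FL in any member past the threshold. By edgeR, DESeq2 and limma-voom 0 of 10 passed, against 0.0227% of all tested genes by edgeR. An unadjusted p under 0.05 in edgeR was reached by 2 of 10 members and 771 of 13191 tested genes. Suz12 was at 217.3 and 202.2 CPM, between the ΔA and FL libraries, with a log2 difference from FL of -0.24 ± 0.08 (adjusted p = 0.722) and a chromosome 11 median of -0.15. Ezh2 was 0.20 ± 0.08 above FL (adjusted p = 0.788). Between ΔB+C and ΔA, 0 of 10 members passed by edgeR and limma-voom, against 6.69% of all genes by edgeR. DESeq2 called 1 member, Pcgf5, beside 1627 of 13191 genes. An unadjusted p under 0.05 in edgeR was reached by 2 members and 2984 of 13191 genes. The smallest adjusted p in edgeR was 0.0898, for Pcgf5 (0.58 ± 0.18). With the block, 4 of 10 members passed in ΔA against FL (33.4% of all genes): Jarid2 (0.57 ± 0.07, adjusted p = 0.000186) and Pcgf3 (0.29 ± 0.08, adjusted p = 0.019) higher, and Suz12 and Pcgf5 lower. The same 4 passed in ΔB+C against ΔA (27.9%), each in the opposite direction, and 0 of 10 passed in ΔB+C against FL (0.993%). The 2 comparisons with ΔA share its noDOX libraries.

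**Figure D3:**
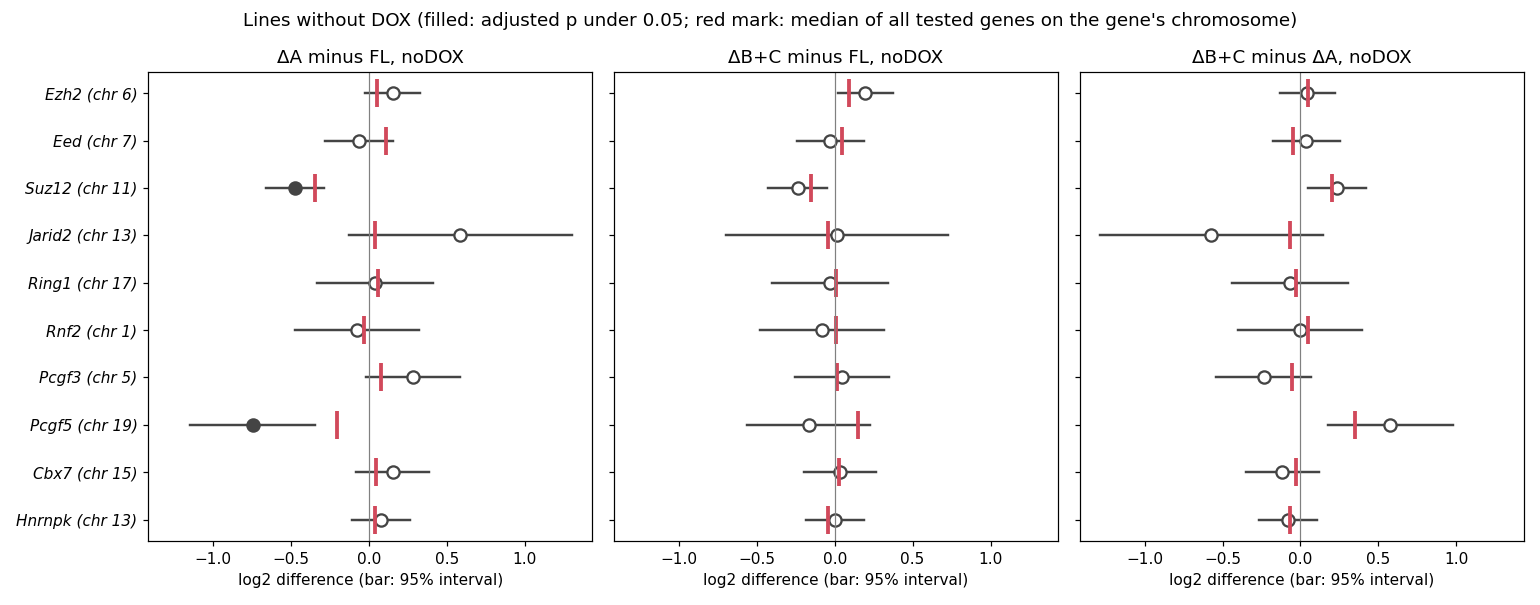
Log2 difference between lines without DOX (horizontal axis, 95% interval) for each gene, from the fit of 6 group means; filled points passed the threshold and red marks give the median of all tested genes on the same chromosome. Suz12 lies near the chromosome 11 mark in all 3 panels, and Pcgf5 lies below the chromosome 19 mark in the ΔA against FL panel, by a difference of -0.54.

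The replicate number, whose meaning the labels do not give, went with differences in 5 of the 10 members. Jarid2 was higher in replicate 2 than in replicate 1 in 6 of 6 groups, with 258.5 to 377.8 CPM in the replicate 1 libraries and 358.8 to 564.9 CPM in the replicate 2 libraries, a log2 difference of 0.53 ± 0.04 (adjusted p = 1.46e-05). Ring1 was higher by 0.20 ± 0.06 (adjusted p = 0.0197; 6 of 6 groups). Rnf2 was lower in replicate 2 in 6 of 6 groups, with 106.8 to 115.7 CPM against 88.2 to 98.8 CPM, a difference of -0.27 ± 0.04 (adjusted p = 0.00042). Pcgf3 (-0.17 ± 0.05, adjusted p = 0.0116) and Eed (-0.11 ± 0.04, adjusted p = 0.0229) were also lower. Eed and Ring1 each lost the threshold when any 1 of 5 libraries was left out (adjusted p up to 0.0571 for Eed and 0.0547 for Ring1). The catalytic PRC1 pair thus moved in opposite directions. These were 5 of 10 members, where 46.3% of all tested genes passed. Ezh2, Suz12, Pcgf5, Cbx7 and Hnrnpk did not pass. Marker genes of other states and cell types moved with the replicate number too. Of the 8 pluripotency markers 5 passed, all higher in replicate 2, among them Sox2 (0.59, adjusted p = 0.00012), and their sum was higher in replicate 2 of every group. Of the 4 markers of the exit from pluripotency 2 passed, 1 in each direction, and likewise 2 of the 7 primitive endoderm markers. Of the 3 fibroblast markers tested 1 passed and was lower (edgeR, adjusted p = 0.0425). The sum of the 6 fibroblast markers was lower in replicate 2 in 5 of 6 groups, for example 53.1 against 19.3 CPM in FL noDOX. Most of that difference was 1 gene, Col1a1, at 38.07 against 5.58 CPM. Col1a1 was higher in replicate 2 in 1 of 6 groups and Thy1, another marker of this list, in 4 of 6. The part of these markers in the result was not tested.

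**Figure D4:**
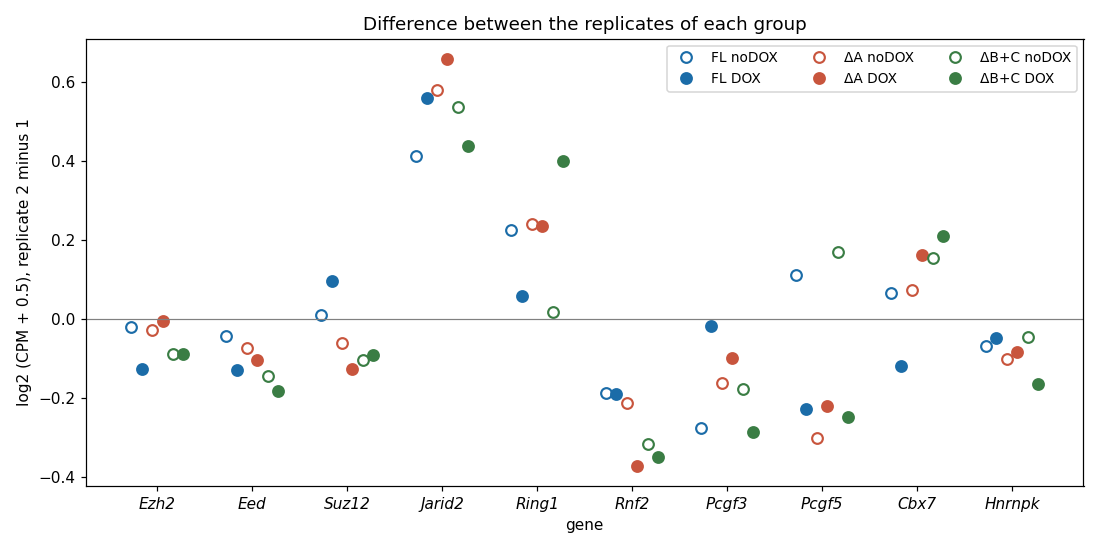
Difference of log2 (CPM + 0.5) between replicates 2 and 1 (vertical axis) for each gene in each of the 6 groups; open points are noDOX and filled points DOX. All 6 points lie above 0 for Jarid2 and Ring1 and below 0 for Ezh2, Eed, Rnf2, Pcgf3 and Hnrnpk.

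Across the 12 libraries, the Pearson r of Jarid2 with the 8 pluripotency markers (log2 (CPM + 1)) ran from -0.346 for Dppa3 and 0.122 for Nanog to 0.879 for Esrrb and 0.957 for Sox2. With the 4 markers of the exit from pluripotency it ran from -0.182 for Fgf5 to 0.765 for Pou3f1, so neither list as a whole went with Jarid2. For Hnrnpk the values were -0.79 (Dppa3) to 0.464 (Pou5f1) with the first list and 0.253 (Pou3f1) to 0.879 (Otx2) with the second. With DOX, 1 of the 8 pluripotency markers passed in FL in the blocked fit, Sox2 (0.64, adjusted p = 0.00504), and 2 in ΔB+C, Sox2 (0.64, adjusted p = 0.00345; 0.0459 without the low-input library) and Zfp42 (1.09, adjusted p = 0.0478; 0.181 without it). Nanog (-0.39 in FL, adjusted p = 0.0555; -0.11 in ΔB+C) and Pou5f1 (-0.01 in FL; -0.20 in ΔB+C, adjusted p = 0.0838) did not pass with all libraries. Without the low-input library the value of Pou5f1 in ΔB+C was -0.31, opposite in direction to Sox2 and Zfp42. Of the 4 exit markers Pou3f1 was higher in FL (0.36, adjusted p = 0.0322). In ΔB+C Fgf5 (-1.50, adjusted p = 0.0336) and Otx2 (-0.33, adjusted p = 0.00946) were lower with all libraries. Without the low-input library only replicate 1 of ΔB+C DOX was left, and the values were -1.39 for Fgf5 and -0.37 for Otx2. The part of these markers in the response of Jarid2 was not tested. These coefficients describe 12 libraries that share 6 groups and 2 replicate numbers. The 3 tested genes whose pattern was most like that of Jarid2 were Prune1 (r = 0.983), Morc1 (0.973) and C330020E22Rik (0.972), those most like Suz12 were Top2a (0.982), Ccdc43 (0.975) and Mis12 (0.974), and those most like Hnrnpk were Sltm (0.986), Tprkb (0.974) and 1810037I17Rik (0.973). For the other members the highest coefficient was between 0.928 (Ezh2 with Cdkn1b, Cbx7 with Tor4a) and 0.978 (Eed with 2700099C18Rik). Among the members themselves, Eed and Rnf2 were most alike (0.893), and Jarid2 and Rnf2 most opposed (-0.764).

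In a wider list of 57 Polycomb genes, all of them tested, the genes that passed with DOX in the fit of 6 group means were other than the 10 members. In FL 2 of 57 passed (1.24% of all tested genes), both lower: Rbbp7, which encodes a histone-binding protein shared by PRC2 and other complexes, and Bcorl1, which encodes a subunit of a PCGF1-PRC1. Rbbp7 was at 415.1 and 405.7 CPM in FL noDOX and at 182.4 and 146.3 CPM in FL DOX, and fell by 1.32 on the log2 scale (adjusted p = 0.00753). In ΔB+C it was at 375.8 and 357.1 CPM without and 175.1 and 128.1 CPM with DOX, and fell by 1.27 (adjusted p = 0.00529). In ΔA it was at 333.5 and 314.8 CPM without and 363.3 and 332.8 CPM with DOX. Rbbp7 and Bcorl1 lie on the X chromosome, where the median change of 465 tested genes was -0.85 in FL, -0.14 in ΔA and -0.78 in ΔB+C. In ΔB+C 4 of 57 passed (2.94% of all tested genes): Rbbp7, Bcorl1 (-1.14, adjusted p = 0.023) and Cbx6 (-0.50, adjusted p = 0.0345) lower, and Mbd6, which encodes a partner of the H2A deubiquitinase BAP1, higher (0.55, adjusted p = 0.0317). Without the low-input library 1 of these 4 passed, Rbbp7 (-1.06, adjusted p = 0.0327). The 2 calls in FL fell to 0 without either noDOX library or DOX replicate 2, and to 1 without DOX replicate 1. In ΔA 0 of 57 passed, and 0 had an unadjusted p under 0.05, beside 149 of 13191 tested genes. Rbbp4, the autosomal paralog of Rbbp7, lay between 411.1 and 528.9 CPM in all libraries.

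With the block, 11 of 57 passed in FL (6 higher, 5 lower), 19 in ΔB+C (10 higher, 9 lower) and 0 in ΔA, against 13.9%, 21.9% and 0.0227% of all tested genes. Among PRC2 genes, Ezh1 rose in both lines (0.38 in FL, adjusted p = 0.0105; 0.46 in ΔB+C, adjusted p = 0.00305). So did Phf1 (0.68 and 0.75, adjusted p = 0.0135 and 0.00489) and Phf19 (0.61 and 1.01, adjusted p = 0.0104 and 0.000439), which encode accessory subunits that bind H3K36 methylation. Among PRC1 genes, Phc1 rose (0.36 and 0.29, adjusted p = 0.00832 and 0.0175), and Yaf2 (-0.63 and -0.52, adjusted p = 0.00867 and 0.0152) and Cbx6 (-0.33 and -0.50, adjusted p = 0.0124 and 0.000975) fell. Bmi1 rose in ΔB+C (0.72, adjusted p = 0.0261). Without the low-input library, 13 of 57 passed in ΔB+C, 10 of them among the 19. Ezh1 (0.46, adjusted p = 0.0202), Phf19 (0.89, adjusted p = 0.00837) and Cbx6 (-0.52, adjusted p = 0.00833) were among these 10, while Phf1 (adjusted p = 0.0526), Phc1 (0.111), Yaf2 (0.118) and Bmi1 (0.184) did not pass. The ΔA values of Ezh1, Phf1, Phf19 and Phc1 lay between -0.06 and -0.03. Difference tests between the responses called 3 of 57 for ΔA minus FL (Jarid2, Rbbp7 and Bcorl1; 3.31% of all tested genes), 10 for ΔB+C minus ΔA (9.32%; 10 without the low-input library, 6 of them shared) and 0 for ΔB+C minus FL with the block, and 0 in each with 6 group means, where 5, 12 and 0 had an unadjusted p under 0.05. Among all 13191 tested genes, 981, 1596 and 106 had such an unadjusted p, in the same order of the differences. For the replicate number 22 of 57 passed, a share of 38.6% beside 46.3% of all tested genes.

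**Figure D5:**
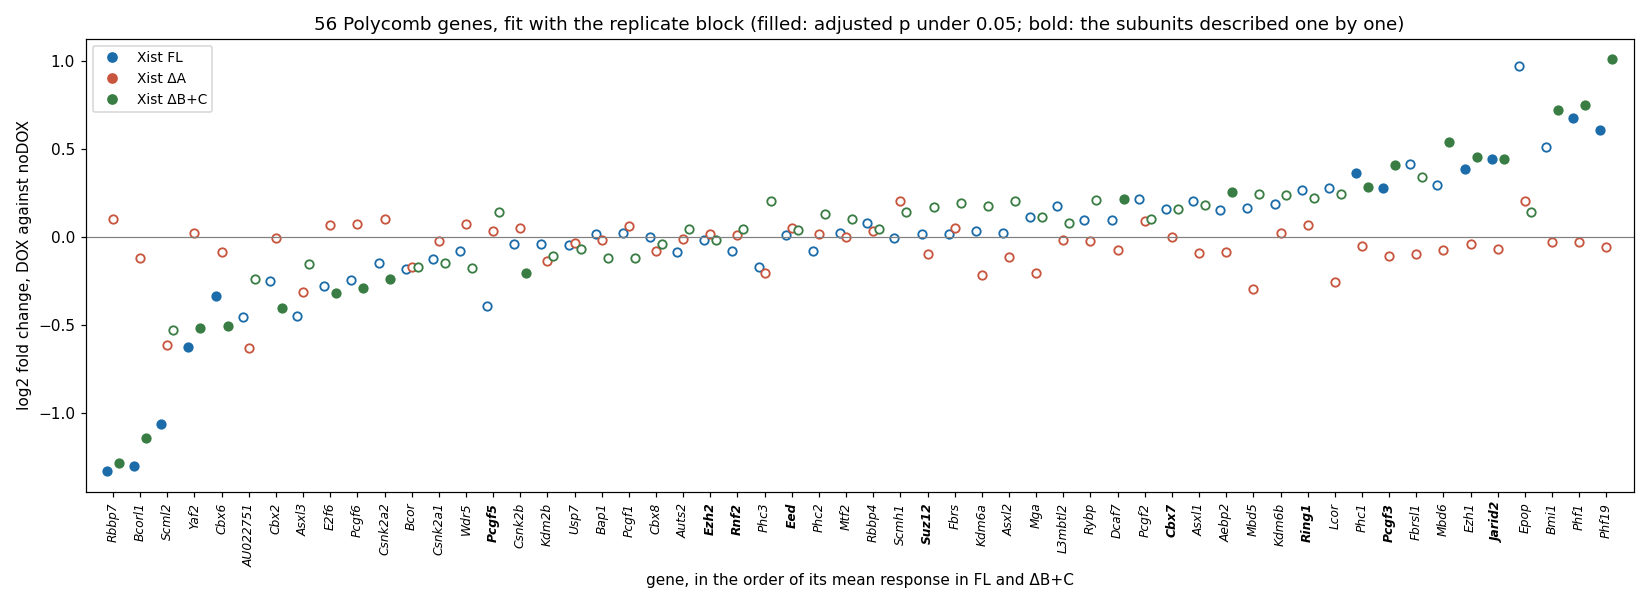
Log2 fold change with DOX (vertical axis) of 56 of the 57 Polycomb genes in the 3 lines from the fit with the replicate block, ordered by the mean response in FL and ΔB+C; filled points passed the threshold. Filled points lie at both ends of the order in FL and ΔB+C, and none of the ΔA points is filled.

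Between the lines without DOX, 8 of 57 passed in ΔA against FL, a share of 14% beside 9.84% of all tested genes. Besides Suz12 and Pcgf5, Scmh1 (-0.71), Csnk2a2 (-0.43) and the X-linked Scml2 (-2.14) were lower, and Bmi1 (1.12), Kdm2b (0.40) and the X-linked Kdm6a (0.57), which encodes an H3K27 demethylase, were higher. Bmi1 was at 12.5 and 9.47 CPM in ΔA noDOX and at 4.77 and 5.33 CPM in FL noDOX. In ΔB+C against FL the 1 gene that passed, where 0.0227% of all tested genes did, was Kdm2b, whose product brings PRC1 to CpG islands (0.84, adjusted p = 0.0432), at 309.2 and 322.7 CPM against 170.1 and 183.5 CPM. In ΔB+C against ΔA 3 passed, Scmh1, Kdm2b and Csnk2a2, all higher, a share of 5.26% beside 6.69% of all tested genes. Of 11 genes for proteins that the study names as partners of Xist RNA, Hnrnpk included, 0 passed with DOX in any line in the fit of 6 group means, and 2 were higher in ΔA than in FL without DOX, beside 9.84% of all tested genes: Spen (0.68, adjusted p = 0.0119), whose product binds the A repeat, and Trim71 (0.49, adjusted p = 0.039). With the block, 2 of 11 were higher with DOX in FL, Rbm15 (0.27, adjusted p = 0.0469) and Trim71 (0.33, adjusted p = 0.038), beside 13.9% of all tested genes. In ΔB+C 2 of 11 were higher, Spen (0.37, adjusted p = 0.0298) and Rbm15 (0.34, adjusted p = 0.0135), beside 21.9%. Neither passed there without the low-input library (adjusted p = 0.0957 and 0.0812), where Hnrnpa1 did (0.62, adjusted p = 0.0359). The blocked difference tests called 2 of 11 for ΔA minus FL (3.31% of all tested genes) and 2 for ΔB+C minus ΔA (9.32%; 1 without that library). Without DOX the block called 4 of 11 in ΔA against FL (33.4%) and 1 in ΔB+C against ΔA (27.9%). Hnrnpk was not among the genes called.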

How the data were processed

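The authors mapped paired reads to mm10 with TopHat2 2.1.0 and the refFlat annotation, counted read pairs over the exons of each gene with featureCounts 1.5.1 (versions from the submitters' processing notes), and deposited these whole-number counts without normalization, in 12 per-sample tables. Whether strand was used and whether PCR duplicates were removed is not given in the sources used here. Reads of overlapping or near-identical genes could therefore be shared. Groups and replicate numbers came from the labels.

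Genes reaching 1 CPM in 6 or more of the 12 libraries were tested with edgeR 4.0.16 (glmQLFit with robust dispersions, 6 group means, all libraries) in R 4.3.3, with TMM factors from expressed autosomal genes and Benjamini-Hochberg adjustment over the 13191 tested genes at a threshold of 0.05. Levels are TMM-scaled CPM, and intervals and SEs come from this fit. A second fit added the replicate number as a block. Libraries of the same number deviated together: the differences between replicates 2 and 1 correlated across 12721 autosomal genes between all 15 pairs of groups (r = 0.399 to 0.82, mean 0.625). Positions came from GENCODE vM21 and promoters from RefSeq (GRCm38.p6). Plots were made in Python 3.11.15 (matplotlib 3.10.9).

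Named genes are the 10 members, their paralogs, and genes of the wider Polycomb list and of the list of Xist partners that passed the threshold, also those that passed only with the block, with the same direction in each replicate pair. Values of 1 paralog are not reported here. The members and lists were chosen with earlier results of these data known. The alternatives were DESeq2 1.42.0, limma-voom (limma 3.58.1), other scaling factors, no filter, a filter of 5 CPM, a fit of only the 2 lines compared, the mean of the noDOX and DOX libraries of each line, leaving out 1 library at a time, and the replicate block. Combinations of the block with other tools and scalings, the block without the low-input library, DESeq2 size factors in edgeR and the comparison with chromosome medians were added after seeing the data. The steps were tested on simulated counts. The depth of 31337490 to 41240470 counts left at least 199 counts for every member in every library, the fewest for Pcgf5. The part of counting error in the spread between libraries was not measured.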

Additional observations from a re-analysis of the deposited data

Results flagged for a closer look

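Differences between the responses of 2 lines to DOX stood out for 2 members, in the fit with the replicate number as a block and by a test of the difference itself. The response of Jarid2 differed by -0.51 between ΔA and FL (edgeR, adjusted p = 0.0229; 3.31% of all tested genes passed) and by 0.51 between ΔB+C and ΔA (adjusted p = 0.0131; 9.32%). The response of Pcgf3 differed by 0.51 between ΔB+C and ΔA (adjusted p = 0.0198). In the fit of 6 group means the same values were -0.51 (adjusted p = 0.886), 0.49 (0.745) and 0.52 (0.326). All 3 use the ΔA libraries, and in the blocked fit both genes were higher without DOX in ΔA than in FL or ΔB+C. Without the low-input ΔB+C DOX library the blocked values for ΔB+C minus ΔA were 0.56 for Jarid2 (adjusted p = 0.021) and 0.58 for Pcgf3 (adjusted p = 0.0279). Groups of 2 libraries are too small to test for an outlying library.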

How the results depend on the processing

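Of 2560 values of the members recomputed under other settings, 2459 kept their direction and their side of the threshold, 19 lost a call, 81 gained one and 1 reversed. A change of sign was not counted where both values lay within 1 SE of 0. The reversed value was that of Pcgf3 in ΔB+C against ΔA without DOX, -0.24 with the noDOX libraries and 0.0229 with the mean of the noDOX and DOX libraries of each line, which lay within its own SE of 0. Each group held 2 libraries, and the parts of depth and of the spread between replicates in the precision were not measured. Causes of the shifts below were not tested. For settings without a share or number of all tested genes, here or above, that background is not given. The counts of members and list genes under those settings, leaving out a library included, therefore cannot be read as more or fewer than among all tested genes.

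With the replicate block, members called went from 0 to 2 with DOX in FL and 2 in ΔB+C (1 and 2 with DESeq2), from 0 to 1 for the difference ΔA minus FL and 2 for ΔB+C minus ΔA, and without DOX from 2 to 4 in ΔA against FL and from 0 to 4 in ΔB+C against ΔA (3 with DESeq2 or limma-voom). The block with library totals, TMM factors from all expressed genes or without ΔB+C DOX replicate 2 gave those counts of members too. It changed no other count of members. The Polycomb list went with the block to 11 called in FL (11 to 13 over other tools and scalings, 12 with DESeq2 and limma-voom) and 19 in ΔB+C (17, 18 or 20), to 3 for ΔA minus FL (up to 5 with DESeq2, 4 with library totals) and 10 for ΔB+C minus ΔA (13 with library totals), and without DOX to 30 in ΔA against FL (29 with DESeq2), 24 in ΔB+C against ΔA (22 or 23; 14, 33 and 27 of the list in FL, ΔA against FL and ΔB+C against ΔA without ΔB+C DOX replicate 2) and, with DESeq2, 2 in ΔB+C against FL.

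Without the block, DESeq2 called 2 list genes for ΔA minus FL and 3 for ΔB+C minus ΔA, beside 135 and 397 of 13191 genes. Without DOX it called 17 in ΔA against FL and 9 in ΔB+C against ΔA, beside 2153 and 1627 of 13191 genes. In the last comparison it also called 1 member. limma-voom, a filter of 5 CPM and no filter each called 1 for ΔB+C minus ΔA, and no filter 1 for ΔA minus FL. The mean of both treatments called 18 list genes in each comparison with ΔA and 2 members in ΔB+C against ΔA. How many of all tested genes it called is not given, so these counts have no background beside them. Without DOX, edgeR without the block called 9.84% of all tested genes in ΔA against FL and 6.69% in ΔB+C against ΔA. In ΔB+C against FL the 1 call was lost (0) with no filter, with TMM factors from all genes and with the libraries of the 2 lines alone, which also called 0 in FL and ΔB+C with DOX and 1 in ΔB+C against ΔA.

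Leaving out 1 library at a time gave 0 to 2 members in ΔA against FL without DOX and counts of members within 1.5 times of those reported elsewhere. The list gave 0 to 2 in FL with DOX (fewer than 2 without any of the 4 FL libraries), 1 to 3 in ΔB+C with DOX (1 without ΔB+C noDOX replicate 1 or DOX replicate 2), 0 to 1 for ΔB+C minus ΔA (1 without ΔB+C DOX replicate 1), 0 to 13 in ΔA against FL (0 or 1 without a library compared, 13 without ΔB+C DOX replicate 1), 0 in ΔB+C against FL without any library, and 0 to 6 in ΔB+C against ΔA (5 and 6 without ΔB+C DOX replicates 1 and 2). For the replicate number, Eed and Ring1 each lost the threshold without 5 of the 12 libraries (adjusted p up to 0.0571 and 0.0547), and Cbx7 gained it without either FL DOX library (0.0281 and 0.0278).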
